A study of Homo sapiens with 6 samples.

Results

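The mitotic kinases described here were CDK1, WEE1, PLK1, PLK4, AURKA, AURKB, TTK, BUB1, BUB1B and NEK2, 10 genes picked by symbol from a table of 61541 Ensembl genes. All 10 had enough reads to be tested, among 17678 genes that did. The RNA came from H9, an established line of human T lymphoma cells, with an unmodified (WT) genotype. The comparison set 3 libraries of H9 cells given AZD4573, a selective inhibitor of the transcriptional kinase CDK9, at 50 nM for 4 h against 3 libraries of cells given the solvent DMSO, for which the labels state no time. The 4 h is that of the labels, and a passage of the study names a longer exposure. It asked which transcripts were lower or higher when CDK9 was blocked. H9 is 1 cell line, and no source used here states that the 3 replicates were separate cultures, so p-values measure the spread between these libraries, which may be technical.

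Cells enter mitosis when CDK1, bound to cyclin B, is released from inhibitory phosphorylation by WEE1 and PKMYT1 through CDC25 phosphatases. PLK4 starts centriole duplication, while PLK1, AURKA and NEK2 act on the maturation and separation of centrosomes and on the spindle. AURKB corrects faulty attachments of chromosomes within the chromosomal passenger complex, and TTK, BUB1 and BUB1B hold back anaphase through the spindle assembly checkpoint. Many of these genes are transcribed periodically, with promoter elements known as CHR (TTTGAA or TTCGAA) and CCAAT boxes.

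Promoter sequence was available in RefSeq (GRCh38.p14) for 7 of the 10 genes, and WEE1, AURKA and TTK had no entry there. The window searched ran from 250 bases before to 50 bases after the RefSeq start site. For PLK1, AURKB, BUB1B and NEK2 that site lies inside the GENCODE span given for the gene further on. The stretches below, from 6 of the 7 genes, are shown because they hold the TTTGAA and CCAAT letters found upstream of that site, and matches downstream of it, in PLK4 and BUB1, are not printed. Each reads 5′ to 3′ on the strand of its gene. Capitals mark a TTTGAA element, or a CCAAT box in either orientation, which reads ATTGG when reversed. The CDK1 stretch lies at chr10:60778160-60778195 on the plus strand.
CDK1: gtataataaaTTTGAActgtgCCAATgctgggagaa
The PLK1 stretch lies at chr16:23678806-23678875 on the plus strand and also holds both motifs.
PLK1: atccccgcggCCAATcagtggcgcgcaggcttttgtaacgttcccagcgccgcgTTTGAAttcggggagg
The AURKB stretch lies at chr17:8210364-8210388 on the minus strand.
AURKB: cagcgcccagATTGGggctagtgtg
The BUB1 stretch lies at chr2:110678103-110678152 on the minus strand.
BUB1: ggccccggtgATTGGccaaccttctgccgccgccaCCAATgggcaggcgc
The BUB1B stretch lies at chr15:40161036-40161061 on the plus strand.
BUB1B: gaccgttaaaTTTGAAacttggcggc
The NEK2 stretch lies at chr1:211675641-211675697 on the minus strand.
NEK2: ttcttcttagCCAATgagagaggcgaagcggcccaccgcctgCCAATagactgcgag

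TTTGAA was found, on either strand, in 4 of the 7 promoters (CDK1, PLK1, PLK4 and BUB1B), against 9.88% of the 11422 promoters of tested genes and 15.4% of all 27305 promoters of the same length. In PLK4 it stood on the opposite strand and downstream of the start, from base 39. CCAAT was found in 5 of the 7 (CDK1, PLK1, AURKB, BUB1 and NEK2), against 36.5% of promoters of tested genes and 35.7% of all. TTCGAA was found in BUB1 alone among the 7, at base 2 after the start, and in 1.67% of promoters of tested genes. No motif overlapped another. GGCGGGAA, letters of the E2F type, and TATAAA were in none of the 7, and in 4.89% and 6.01% of promoters of tested genes. CDK1 and PLK1 each held both a TTTGAA and a CCAAT. These matches describe letters in a short window and are not measured binding sites.

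After AZD4573, transcripts of 8 of the 10 mitotic kinases were lower, none was called higher, and WEE1 and PLK1 did not pass the threshold (edgeR quasi-likelihood test, Benjamini-Hochberg adjusted p under 0.05). Among all genes tested, 37.4% were lower and 37.3% were higher by the same rule. By at least 1.5-fold 5 kinases were lower (PLK4, AURKA, TTK, BUB1B and NEK2), against 23.7% of genes tested, and by at least 2-fold 3 were (PLK4, TTK and NEK2), against 13.9%. None was higher by either fold, against 22.7% and 15.0% of genes tested. In the same 8 genes every AZD4573 library lay below every DMSO library, which held for 38.7% of genes tested. The median log2 fold change of the 10 was −0.565, beside 0.026 over all genes tested. In the log2 fold change from DMSO to AZD4573, TTK lay lower than all but 3.3% of genes tested, PLK4 than all but 10.4% and NEK2 than all but 11.4%. Levels are given in CPM, counts relative to the size of the library, with library sizes scaled by the trimmed mean of M values (TMM), so each change is relative to the other transcripts of the same library. In bulk RNA, fewer cells in G2 and mitosis and less of these transcripts per cell cannot be told apart.

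**Figure D1:**
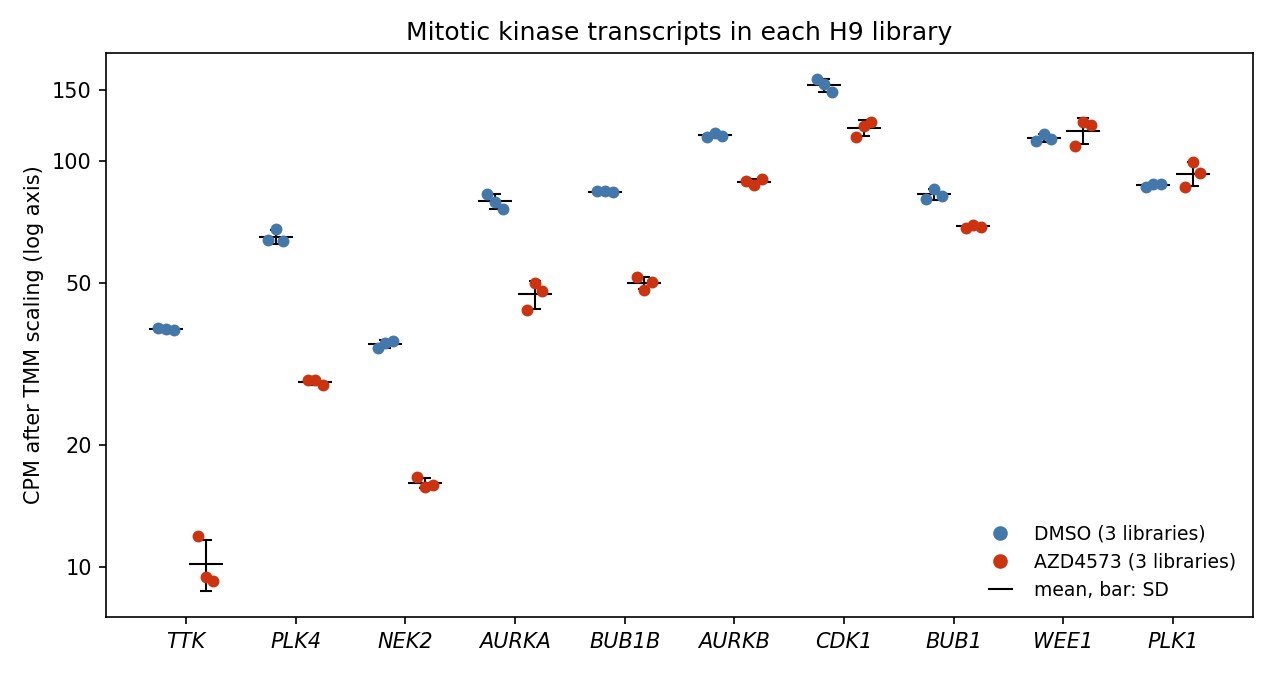
Level of each mitotic kinase in each library (CPM, log axis), with DMSO and AZD4573 libraries as separate points and lines and bars for the group means and their SD. The groups are apart in 8 genes and overlap in WEE1 and PLK1, and TTK shows the widest gap on the log axis, from 38.57 to 10.18 CPM.

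Sequencing depth ranged from 70367303 to 76571157 counts with DMSO and was lower with AZD4573, at 52101868 to 63795185 counts. The share of counts from mitochondrially encoded mRNAs was 3.04% to 3.22% and 4.67% to 4.98%, and the part of depth and of this share in the results was not tested beyond the scalings given below. The T-cell identity was checked on 12 markers, of which 10 reached 10 CPM. Their summed level, here in CPM without TMM scaling, was 1936 to 1973 in DMSO and 2726 to 2781 in AZD4573. CD2 reached no more than 13 counts in any library, and CD4 averaged 3.83 CPM in DMSO and 6.98 CPM in AZD4573. Of 12 markers of B cells, myeloid, erythroid, epithelial and stromal cells, EPCAM and CD79A alone reached 10 CPM. CD79A rose from 57.78 ± 2.96 to 93.57 ± 4.99 CPM (edgeR adjusted p = 6.37e-08) and EPCAM fell from 155.0 ± 10.3 to 134.5 ± 2.46 CPM (edgeR adjusted p = 0.00203). The summed level of these 12 markers, also without TMM scaling, was 219.5 to 239.1 CPM in DMSO and 220.9 to 228.6 CPM in AZD4573.

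CDK1 and WEE1 are the kinase that drives entry into mitosis and the kinase that restrains it. CDK1 (ENSG00000170312, 8 exons in its canonical transcript, chr10:60778331-60794852, plus strand) was measured at 159.6, 154.9 and 148.0 CPM in DMSO and at 114.8, 122.5 and 125.1 CPM in AZD4573. All AZD4573 libraries were below all DMSO libraries, with means of 154.2 ± 5.81 and 120.8 ± 5.38 CPM (SD, n = 3 each). The log2 fold change was −0.352 (SE 0.0471, edgeR adjusted p = 1.33e-05, 95% interval −0.454 to −0.25), which left 78.4% of the DMSO level.

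WEE1 (ENSG00000166483, 11 exons, chr11:9573670-9593457, plus strand) stood at 112.3, 117.0 and 113.7 CPM in DMSO and at 109.3, 125.2 and 122.9 CPM in AZD4573. The groups overlapped, because AZD4573 replicate 1 held the lowest of the 6 values and replicates 2 and 3 the highest. The means were 114.3 ± 2.42 and 119.1 ± 8.62 CPM, and the log2 fold change of 0.06 (SE 0.0527) was within the spread of the libraries (edgeR adjusted p = 0.319). Its 95% interval, from −0.054 to 0.174, corresponds to 0.963 to 1.13 times the DMSO level. Without AZD4573 replicate 1, the log2 fold change of WEE1 was 0.114 with an edgeR adjusted p of 0.0273.

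The count ratio of CDK1 to WEE1 does not depend on how libraries are scaled. It was 1.42, 1.32 and 1.3 with DMSO and 1.05, 0.978 and 1.02 with AZD4573, so the groups did not overlap. The geometric mean fell from 1.35 to 1.01, a difference of −0.409 on the log2 scale with a pooled SD of 0.06. With 3 libraries against 3, the exact two-sided permutation test cannot go below 0.1, which was the p-value here and, after adjustment, in each of the 6 ratios examined.

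The cyclin partner of CDK1 and an activating phosphatase were lower as well. CCNB1, cyclin B1, averaged 71.48 ± 2.55 CPM in DMSO and 45.88 ± 1.19 CPM in AZD4573 (log2 fold change −0.64, SE 0.0488, edgeR adjusted p = 4.92e-08). Its ratio to CDK1 was lower in each AZD4573 library (0.365 to 0.41) than in each DMSO library (0.445 to 0.482). CDC25A, a phosphatase that removes the WEE1 mark, fell from 124.1 ± 6.37 to 82.29 ± 3.47 CPM (−0.593, SE 0.0506, edgeR adjusted p = 1.54e-07). CDC25B and CDC25C, both named after their values were seen, changed less clearly. CDC25B went from 105.4 to 96.74 CPM (−0.124, edgeR adjusted p = 0.0223). CDC25C, at 2.82 and 2.13 CPM, did not pass (−0.39, edgeR adjusted p = 0.18). The ratio of CDC25A to WEE1 ran from 1.03 to 1.17 in DMSO and from 0.679 to 0.717 in AZD4573, without overlap.

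**Figure D2:**
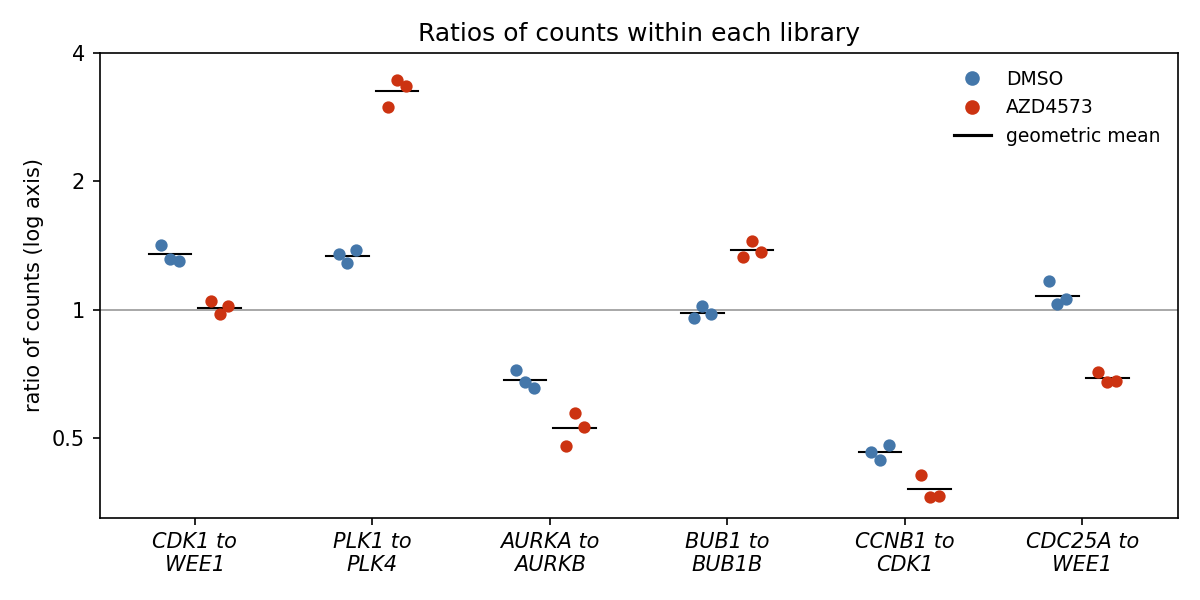
Ratio of counts within each library (log axis) for 6 pairs of mitotic genes, with points for libraries, coloured by group, and lines for geometric means. In each pair the 3 AZD4573 libraries lie apart from the 3 DMSO libraries, by −0.65 (CDC25A to WEE1) to 1.279 (PLK1 to PLK4) on the log2 scale.

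The polo-like kinases moved unequally. PLK1 (ENSG00000166851, 10 exons, chr16:23677656-23690367, plus strand), which acts at centrosomes, kinetochores and the midzone, was measured at 86.66, 87.9 and 87.71 CPM in DMSO and 86.52, 99.47 and 93.65 CPM in AZD4573. AZD4573 replicate 1 lay just under the DMSO values and the other two lay above them, so the groups overlapped. The means were 87.43 ± 0.67 and 93.21 ± 6.49 CPM, with a log2 fold change of 0.093 (SE 0.052, edgeR adjusted p = 0.122) and a 95% interval of −0.02 to 0.205, or 0.986 to 1.15 times DMSO. Without AZD4573 replicate 1 it was 0.14 with an edgeR adjusted p of 0.0149, and with a filter of at least 10 counts in every library it was 0.13 with an adjusted p of 0.0335.

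PLK4 (ENSG00000142731, 16 exons, chr4:127880893-127899224, plus strand), the kinase that licenses the growth of a new centriole, was measured at 64.13, 68.13 and 63.45 CPM in DMSO and at 28.94, 28.82 and 28.03 CPM in AZD4573. The highest AZD4573 library held less than the lowest DMSO library by a wide margin. PLK4 retained 43.8% of its DMSO level (65.24 ± 2.53 against 28.6 ± 0.496 CPM, log2 fold change −1.19, SE 0.0511, edgeR adjusted p = 2.75e-10, 95% interval −1.3 to −1.079). The count ratio of PLK1 to PLK4 was 1.35, 1.29 and 1.38 in DMSO and 2.99, 3.45 and 3.34 in AZD4573, a difference of 1.279 on the log2 scale between groups that did not overlap.

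AURKA (ENSG00000087586, 9 exons, chr20:56369389-56392337, minus strand) builds the spindle poles and switches on PLK1. It was measured at 83.05, 79.62 and 76.26 CPM in DMSO and at 42.9, 50.21 and 47.99 CPM in AZD4573, with every AZD4573 library lower. The means of 79.64 ± 3.4 and 47.03 ± 3.75 CPM differed by a log2 fold change of −0.759 (SE 0.0605, edgeR adjusted p = 7.7e-08).

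AURKB (ENSG00000178999, 9 exons, chr17:8204733-8210600, minus strand), the catalytic subunit of the chromosomal passenger complex, was measured at 114.8, 117.4 and 115.8 CPM in DMSO and at 89.25, 87.33 and 90.24 CPM in AZD4573. It was lower in all AZD4573 libraries, and the smaller of the 2 Aurora changes, at a log2 fold change of −0.383 (SE 0.0411, edgeR adjusted p = 1.51e-06), left 76.7% of the DMSO level. The count ratio of AURKA to AURKB went from a geometric mean of 0.686 to 0.528, with 0.658 as the lowest DMSO library and 0.575 as the highest AZD4573 library.

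The checkpoint kinases spanned the whole range of the falls. TTK (ENSG00000112742, 22 exons, chr6:80003887-80042527, plus strand), also called MPS1, starts checkpoint signalling by phosphorylating KNL1 at kinetochores. It was measured at 38.88, 38.55 and 38.28 CPM in DMSO and at 11.89, 9.438 and 9.224 CPM in AZD4573. All AZD4573 libraries were far below DMSO, and AZD4573 replicate 1 was the highest of them. TTK had the largest fall among the 10 kinases, with 26.3% of the DMSO level left (log2 fold change −1.925, SE 0.0838, edgeR adjusted p = 3.04e-10, 95% interval −2.107 to −1.744).

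BUB1 (ENSG00000169679, 25 exons, chr2:110637528-110678063, minus strand), which docks on KNL1 and marks centromeric histone H2A, was measured at 80.61, 85.6 and 82.38 CPM in DMSO and at 68.64, 69.82 and 68.98 CPM in AZD4573. The groups were apart, and the fall was the smallest of the 8, to 83.5% of DMSO (log2 fold change −0.261, SE 0.0445, edgeR adjusted p = 1.25e-04). BUB1B (ENSG00000156970, 23 exons, chr15:40161023-40221123, plus strand) encodes BUBR1, a subunit of the mitotic checkpoint complex that inhibits CDC20. It was measured at 84.32, 84.31 and 83.95 CPM in DMSO and at 51.76, 48.28 and 50.41 CPM in AZD4573, and its AZD4573 libraries were all below DMSO (log2 fold change −0.748, SE 0.0461, edgeR adjusted p = 6.13e-09). The ratio of BUB1 to BUB1B rose from 0.984 to 1.38 as a geometric mean, with no overlap between libraries.

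NEK2 (ENSG00000117650, 8 exons, chr1:211658657-211675630, minus strand) phosphorylates the linker that holds paired centrosomes together. It was measured at 34.59, 35.62 and 36.11 CPM in DMSO and at 16.66, 15.77 and 15.89 CPM in AZD4573, so all AZD4573 libraries were below DMSO. The means of 35.44 ± 0.775 and 16.11 ± 0.484 CPM gave a log2 fold change of −1.138 (SE 0.0566, edgeR adjusted p = 8.74e-10).

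Summed over the 10 genes, the level was 858.9, 869.0 and 845.7 CPM in DMSO and 620.6, 656.8 and 652.5 CPM in AZD4573. Per kilobase of canonical transcript, the DMSO order was AURKB (93.3 CPM per kb), CDK1 (81.6), PLK1 (40.5), AURKA (39.2), WEE1 (31.9), BUB1B (22.9), BUB1 (22), PLK4 (17.0), NEK2 (16.6) and TTK (13). Neighbours were apart in all 3 libraries except PLK1 with AURKA and PLK4 with NEK2. In AZD4573 the order was AURKB (71.6 CPM per kb), CDK1 (63.9), PLK1 (43.2), WEE1 (33.2), AURKA (23.1), BUB1 (18.4), BUB1B (13.7), NEK2 (7.55), PLK4 (7.45) and TTK (3.43), where NEK2 and PLK4 overlapped. On this per-kilobase scale AURKA stood above WEE1 in DMSO and below it in AZD4573, and BUB1B above and then below BUB1. In CPM not divided by length, WEE1 was above AURKA in DMSO already (114.3 against 79.64). The DMSO libraries of BUB1 and BUB1B overlapped in CPM (means 82.86 and 84.19).

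The directions of WEE1 and PLK1 depended on scaling. With library size alone their log2 fold changes were −0.045 and −0.012, and with libraries scaled to the 13 mitochondrially encoded mRNAs they were −0.682 and −0.648, past the threshold. The latter scaling shifted the median of all genes tested from 0.026 to −0.712, and relative to that median WEE1 and PLK1 lay at 0.03 and 0.064. The other 8 kinases were lower and past the threshold under each scaling tried, with TTK between −2.659 and −1.863 over all alternatives and BUB1 between −0.999 and −0.224.

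**Figure D3:**
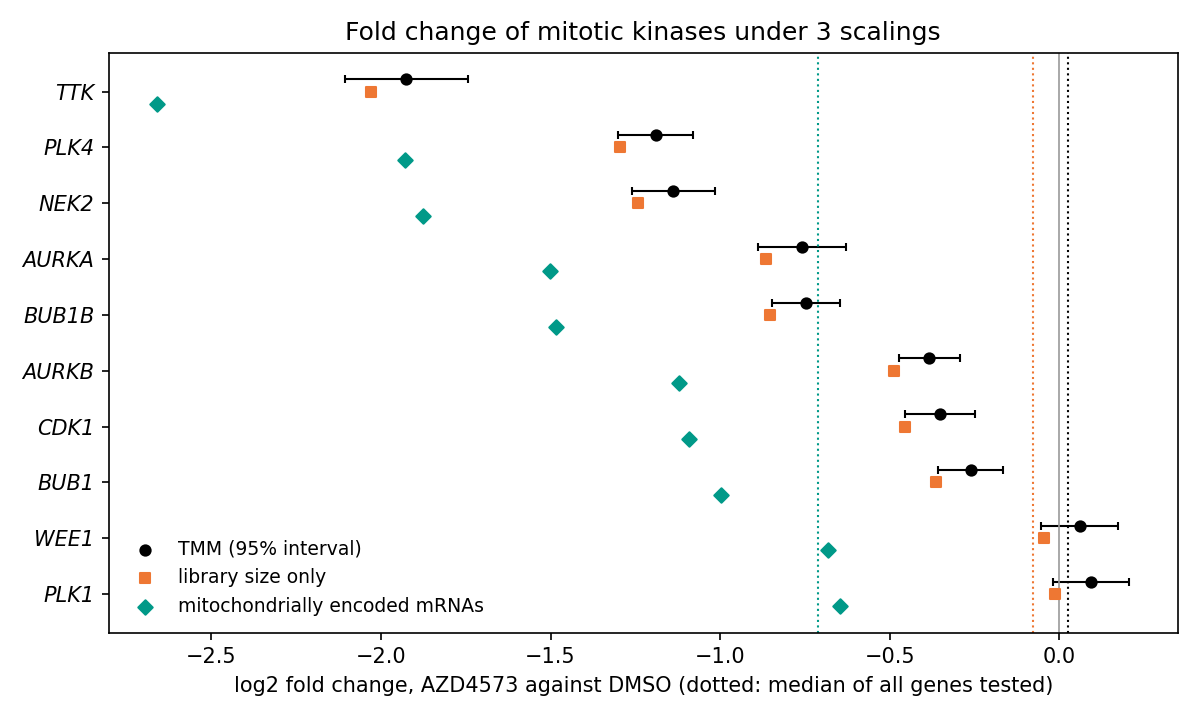
Log2 fold change of AZD4573 against DMSO for each mitotic kinase under 3 scalings: TMM (circles, with 95% intervals from the edgeR fit), library size only (squares) and mitochondrially encoded mRNAs (diamonds), with dotted lines for the median of all genes tested under each. The TMM intervals of 8 genes lie below 0, from TTK at −1.925 to BUB1 at −0.261, and those of WEE1 and PLK1 span 0; these 2 genes lie just right of the median line under each scaling.

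Annotated neighbours and copies of the kinase genes carried few counts beside them. BUB1B shares 457 exon bases with PAK6, which had at most 429 counts in a DMSO library and 213 in an AZD4573 library. PLK1 shares 611 exon bases with other genes, and an antisense gene among them, ENSG00000261266, had at most 9 counts. The pseudogene AURKAP1 had at most 25 counts, and the other copies of AURKA, AURKB, BUB1 and NEK2 in the table had at most 3. The counting ignored strand, so reads of overlapping genes on opposite strands cannot be told apart.

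The kinases differed in gene structure, which the choice of genes had not used. Their spans ran from 5868 bases (AURKB) to 60101 bases (BUB1B). When the 13423 protein-coding genes tested were split by span into 4 groups of near equal size, the median log2 fold change was 0.053 in the shortest, which held AURKB, and −0.094 in the next, which held CDK1, WEE1, PLK1, PLK4, AURKA and NEK2. It was −0.187 in the third, which held TTK, BUB1 and BUB1B, and −0.065 in the longest, which held none. Within the same span group PLK4 fell by 1.19 while PLK1 stood at 0.093 on the log2 scale. Across genes, which are not independent replicates, the Spearman correlation of span with log2 fold change was −0.026.

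The pentamer ATTTA, a core of AU-rich elements that can speed mRNA decay, was counted in the 3′ UTR of each canonical transcript. CDK1 held 5, PLK4, BUB1B and NEK2 held 4 each, WEE1, AURKA and BUB1 held 1 each, and PLK1, AURKB and TTK held 0. The longer TATTTAT was in PLK4, with 2, and in NEK2, with 1, and in 34.1% of protein-coding genes tested that had a 3′ UTR. Over the 13366 genes of that kind, the median log2 fold change was 0.176 with 0 ATTTA, −0.12 with 1 to 3 and −0.247 with at least 4. The 3′ UTR of TTK spans 325 bases and that of CDK1 spans 877. The part of these letters in the changes was not tested.

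The partners of the kinases were counted in lists chosen by known role, and genes named by rule are the largest falls and rises of each list. Each list count stands beside 37.4% of all genes tested that were lower and 37.3% that were higher. Of 12 genes of the CDK1 activation switch, 10 were lower, 1 was higher and 1 did not pass, with a median log2 fold change of −0.598. CDK7, the kinase that phosphorylates the activation loop of CDK1, fell most, from 22.23 ± 1.3 to 6.43 ± 0.863 CPM (log2 fold change −1.793). CKS2, a small CDK-binding protein, fell from 70.47 to 31.97 CPM (−1.141), whereas its paralogue CKS1B rose from 129.6 to 190.9 CPM (0.559). PKMYT1, which restrains CDK1 beside WEE1, fell from 80.72 ± 3.9 to 65.77 ± 1.34 CPM. PKMYT1 was named after its values were seen, as were the further genes marked so below.

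Among 16 partners at centrosomes and spindles, 10 were lower, 1 was higher and 5 did not pass, with a median of −0.431. AJUBA, a LIM protein that binds AURKA, fell from 8.76 to 1.05 CPM (log2 fold change −3.054), and CEP152, the scaffold that brings PLK4 to the centriole, fell from 27.43 to 7.09 CPM (−1.956). HMMR, a spindle pole protein, rose from 29.88 ± 0.652 to 40.51 ± 1.83 CPM (0.439). SASS6, a partner of PLK4 in centriole growth, went from 52.66 to 15.08 CPM (−1.805), CENPJ from 36.11 to 15.42 CPM (−1.228) and STIL from 44.41 to 22.8 CPM (−0.962), all 3 named after their values were seen. CEP192 and CEP63, centrosomal scaffolds of the same list named in the same way, did not pass, at 0.084 (edgeR adjusted p = 0.203) and −0.05 (0.378). TPX2, the activator of AURKA at the spindle and likewise named afterwards, measured 148.2 and 145.7 CPM, a log2 fold change of −0.025 that did not pass (edgeR adjusted p = 0.601).

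Of 7 genes of the chromosomal passenger complex and of cohesion protection, 4 were lower and 3 were higher, with a median of −0.447. Calls in both directions were common over all genes tested, with 37.4% lower and 37.3% higher. SGO2, a protector of centromeric cohesion, fell from 31.17 to 12.26 CPM (−1.346), and CDCA8, or borealin, fell from 78.26 to 46.28 CPM (−0.758). HASPIN, the histone H3 kinase that recruits the complex to centromeres, rose from 44.79 ± 0.633 to 87.35 ± 9.75 CPM (0.964), and BIRC5, or survivin, rose from 142.0 to 187.3 CPM (0.399). Thus AURKB, CDCA8 and BIRC5, which sit in 1 complex, did not move together.

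Of 29 genes of the checkpoint and the anaphase-promoting complex, 21 were lower, 5 were higher and 3 did not pass, with a median of −0.398. KNL1, the docking platform phosphorylated by TTK, fell from 32.34 ± 0.65 to 14.27 ± 0.628 CPM (log2 fold change −1.179), and ZW10 of the kinetochore complex that recruits dynein fell from 28.76 to 13.47 CPM (−1.095). KNTC1, a partner of ZW10 in that complex, rose from 99.87 to 158.9 CPM (0.67), and the subunit ANAPC16 rose from 168.7 to 255.8 CPM (0.601). CDC20, the target of the checkpoint and named after its values were seen, fell from 75.97 to 39.26 CPM (−0.953).

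Among 24 other kinases of cell division that could be tested, 11 were lower, 8 were higher and 5 did not pass, with a median of −0.085. These counts are near the shares over all genes tested, 37.4% lower and 37.3% higher. PLK2 had 0 counts in every library. TLK2, a kinase acting on histone chaperones, fell from 77.93 to 36.21 CPM (−1.106), and LATS2 was lower at low levels (0.98 to 0.356 CPM). AURKC, the third Aurora kinase, was higher at a very low level (0.153 to 0.673 CPM), as was NEK11 (1.01 to 2.6 CPM). PLK3, named after its values were seen, fell from 45.07 to 22.26 CPM (−1.018), so PLK3 and PLK4 were lower and PLK1 was not.

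Of 16 regulators of G2/M transcription, 10 were lower, 4 were higher and 2 did not pass, with a median of −0.502. LIN54, the subunit of the DREAM and MuvB complexes that reads CHR elements, fell from 24.29 ± 0.687 to 7.62 ± 0.585 CPM (−1.673), and LIN9 of the same complex fell from 25.9 to 10.29 CPM (−1.332). RBL2, a pocket protein of the repressive DREAM complex, rose from 90.54 to 125.3 CPM (0.469), and TFDP2 rose from 237.1 to 306.2 CPM (0.369). RBL1, a paralogue of RBL2 in the same list, named after its values were seen, fell from 91.1 to 37.89 CPM (−1.267). FOXM1, an activator of G2/M genes named after its values were seen, measured 124.6 and 132.7 CPM and did not pass (edgeR adjusted p = 0.0501).

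Of 18 genes of opposing phosphatases, 11 were lower, 4 were higher and 3 did not pass, with a median of −0.408. PPP2R2A, a B55 subunit of PP2A that reverses CDK1 phosphorylation, fell from 38.81 to 14.64 CPM (−1.409). The PP1 catalytic subunit PPP1CC fell from 267.7 to 104.5 CPM (−1.357), while its paralogue PPP1CA rose from 207.6 to 256.5 CPM (0.305). CDC14A rose from 14.42 to 18.01 CPM (0.323).

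Lists with no kinase were set beside these. Of 24 G2/M genes that encode no kinase, 19 were lower, 4 were higher and 1 did not pass, with a median of −0.458. ECT2, an activator of RhoA in cytokinesis, fell from 54.77 to 20.65 CPM (−1.409), CKAP2 fell from 77.19 to 30.61 CPM (−1.336), PRC1 of the spindle midzone rose from 76.6 to 111.6 CPM (0.543) and PTTG1, or securin, rose from 16.88 to 19.83 CPM (0.232). Without DMSO replicate 2, DMSO replicate 3, AZD4573 replicate 2 or AZD4573 replicate 3, 2 of these genes were higher. Of 23 G1/S genes, 14 were lower, 5 were higher and 4 did not pass, with a median of −0.265, including falls of CCNE2 (−2.104) and RRM2 (−1.658) and a rise of CDC45 (0.571).

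With library size only, the 16 rises picked by the rule stayed above 0, at 0.128 to 2.029 on the log2 scale. Scaling to mitochondrially encoded mRNAs, which lowered the median of all genes tested to −0.712, put 13 of the 16 below 0, and relative to that median they lay at 0.205 to 2.119. HASPIN stands in 2 of the lists but is named under 1 of them.

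**Figure D4:**
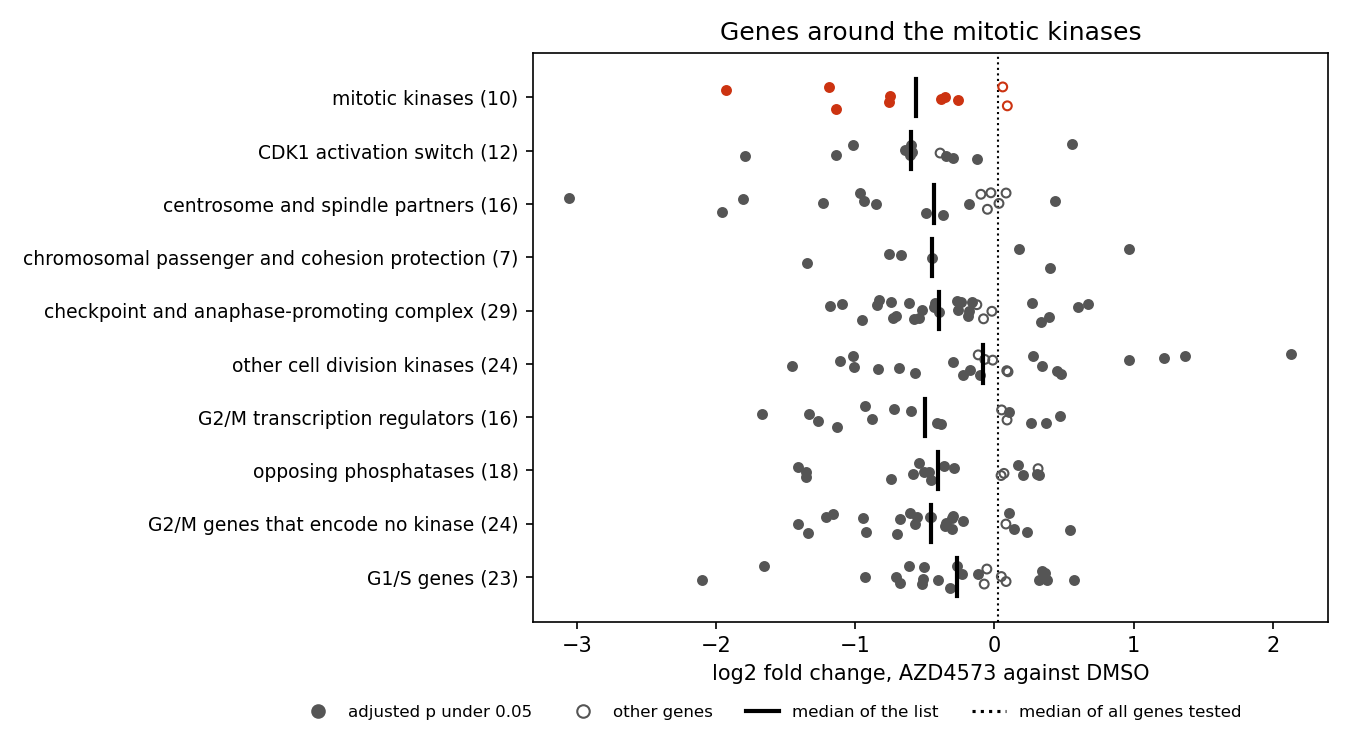
Log2 fold changes of AZD4573 against DMSO for the genes of each list, with 1 point a gene (filled at an adjusted p under 0.05, open otherwise), the list median as a line and the median over all genes tested as a dotted line. The list medians run from −0.598 for the CDK1 activation switch to −0.085 for other cell division kinases, beside 0.026 over all genes tested.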

How the data were processed

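RNA of 3 DMSO and 3 AZD4573 samples of H9 was sequenced by the authors. They checked reads with FastQC 0.11.8, trimmed them with Cutadapt 2.3, aligned them to GRCh38 with STAR 2.7.8a and estimated gene abundance with RSEM 1.3.3 (versions from the submitters' processing notes and the study's methods), and deposited expected counts per gene in whole numbers. The labels describe poly(A) selection and the study's methods describe rRNA depletion, and strand was ignored in counting. Here these deposited counts were tested with edgeR 4.0.16 (R 4.3.3): filterByExpr with a minimum count of 10, TMM scaling, quasi-likelihood test of AZD4573 against DMSO, and Benjamini-Hochberg adjustment over 17678 genes. SE is the log2 fold change divided by the square root of F. CPM used TMM-scaled library sizes, except in the marker sums, which used the unscaled total counts of each library. Ratios of counts were tested by exact permutation (scipy 1.17.1). Gene models came from GENCODE 44 on GRCh38 and promoter sequence from RefSeq. The code was tested on simulated data.

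The mitotic kinases, the lists and the tests were chosen with earlier results of these data known. Named genes are the 10 kinases, the genes of the ratios, and the 2 largest falls and 2 largest rises of each list at an adjusted p under 0.05. A gene that this rule picked is not reported here. The main fit did not pair libraries by replicate number. Deviations of same-numbered libraries correlated at −0.0208, 0.0417 and 0.0316, so no shared effect was seen. These values cannot tell whether such libraries were prepared as pairs. All pairs of replicate libraries differed by more than sampling noise (chi-square of counts over its degrees of freedom, 5.59 to 21.2). Alternatives were DESeq2 1.42.0, other scalings and filters, a replicate block and leaving out each library. At 52101868 to 76571157 counts per library, 3 counts corresponded to 0.0392 to 0.0576 CPM.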

Additional observations from a re-analysis of the deposited data

How the results depend on the processing

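Of 330 values of counts and ratios computed under alternatives, 306 were labelled the same and 24 moved. A count was the same if equal or within 1.5 times, which includes counts of 0 that stayed 0. With a library left out, a ratio was the same if it kept its direction and shifted by less than the pooled SD. With 1 count added to each gene, a ratio had only to keep its direction. Of 130 values for single kinases, 123 kept direction and call. With at least 10 counts in every library 1 kinase (PLK1) was higher, and leaving out 1 library gave 0 to 2 (WEE1 and PLK1 without AZD4573 replicate 1). A threshold of 2-fold left 3 kinases lower. Scaling to mitochondrially encoded mRNAs called all 10 kinases lower, with WEE1 at −0.682 (edgeR adjusted p = 1.05e-08) and PLK1 at −0.648 (2.81e-08). With library size only, WEE1 and PLK1 were at −0.045 and −0.012. Under the mitochondrial scaling, 11878 of the 17678 genes tested were lower and 2144 were higher, so most genes of any list would be lower. Lower were 16 centrosome and spindle partners, 20 other cell division kinases, 16 G2/M transcription regulators, 17 opposing phosphatases and 23 G1/S genes. Higher were 1 gene of chromosomal passengers and cohesion protection, 4 other cell division kinases and 0 of the CDK1 activation switch, centrosome partners, checkpoint, G2/M regulators, phosphatases, G2/M genes without a kinase and G1/S genes. The G2/M genes without a kinase that were higher numbered 1 with library size only, 2 with no filter, and 2 to 5 with 1 library left out. The mitochondrial scaling moved the median of all genes to −0.712. The share of counts it uses was 3.04% to 3.22% in DMSO and 4.67% to 4.98% in AZD4573. What this change of share reflects was not tested. With the replicate block 8 kinases were lower and 0 higher, with 6524 genes lower and 6447 higher in all, against 6606 and 6596. Under the block the calls of the 10 kinases did not change and list counts stayed within 1.5 times, with 10 in place of 11 other cell division kinases lower, 3 in place of 4 G2/M regulators higher and 3 in place of 4 G2/M genes without a kinase higher. Depth did not limit the kinases, whose lowest count in a library was 538 (TTK), while AURKC had as few as 6. The exact test of 3 against 3 libraries could not pass 0.05.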
